A study of Sus scrofa with 54 samples.

Results

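The data described here compare the ileum of piglets reared by sows in an indoor, intensive facility (IN) with that of piglets reared by sows in an outdoor, extensive facility (OUT), all killed on day 56 of life. The arrays of the 2 groups were chosen by their sample titles, 6 IN and 6 OUT, which makes 12 of the 54 arrays in the series. Every piglet came from a Large White × Landrace sow inseminated by the same boar, suckled its mother to weaning on day 28, and then ate the same creep feed without restriction. A group of 6 isolator-reared piglets (IR), moved from the indoor sows soon after birth and dosed with antibiotics every day, was measured on the same day, entered the fit to estimate the spread between animals, and is described at the end. RNA of a whole piece of ileum was hybridised to the Affymetrix GeneChip Porcine Genome Array, on which each transcript is read by a probeset. Signals are on the log2 scale, so that a difference of 1 is a doubling. The question was whether the rearing environment, and the bacteria it brings, left a mark on the ileal transcriptome 4 weeks after weaning. Sows lived at 1 facility or the other and the labels name neither sow nor run, so housing, sow and site cannot be told apart, and p-values measure only the spread between these samples.

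The ileum is the last stretch of the small intestine. Its absorptive enterocytes take up fat, vitamins and bile acids, and the epithelium also secretes antibacterial proteins into the gut lumen. Beneath it lie Peyer's patches, lymphoid follicles rich in B cells that sample bacterial antigens, and a lamina propria with plasma cells, T cells, macrophages and mast cells. Bacterial and viral products can induce type I interferons, which switch on a broad set of antiviral genes in most cells. Around weaning the gut passes from milk, which is rich in fat, to a diet based on cereals.

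The arrays held ileum as labelled. The enterocyte genes VIL1 (villin), FABP2 (intestinal fatty acid binding protein) and FABP6 (the ileal bile acid binding protein) had signals of 11.96 or more on all 12 arrays, JCHAIN, which joins the antibody chains made by plasma cells, lay between 12.60 and 13.08, and the median signal was 4.06 to 4.23. Arrays of the IN group resembled each other more (mean correlation with the other arrays of the group, 0.980 to 0.982) than arrays of the OUT group did (0.958 to 0.975). The mean correlation with the arrays of the other group was 0.970 to 0.977 for IN and 0.961 to 0.983 for OUT arrays. All OUT arrays but OUT 2 correlated better on average with the IN arrays than with their own group. The 3′ minus 5′ signal of actin, a measure of RNA integrity, was 0.21 to 2.04, with its highest value in the piglet OUT 3. Among the OUT arrays, OUT 2 and OUT 5 stood apart. CD79B, part of the B cell antigen receptor, had signals of 9.79 and 10.59 on them and 2.77 to 3.31 on the other 10 arrays. LTB (lymphotoxin beta, needed for lymphoid follicles) had 10.42 and 11.39 against 3.47 to 5.13, and CXCL13, the chemokine that draws B cells into follicles, 11.31 and 11.23 against 4.60 to 8.19. CD40, a receptor on B cells, was also highest there, at 7.72 and 7.89. JCHAIN and the T cell receptor component CD3E did not separate these arrays from the rest. In whole tissue, more cells of a type and more RNA per cell cannot be told apart. For the genes described in detail, the difference without OUT 2 and OUT 5 is given where it ended or added a call or was over 1.5 times larger or smaller, and the plot of list medians shows that value for every gene list.

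**Figure D1:**
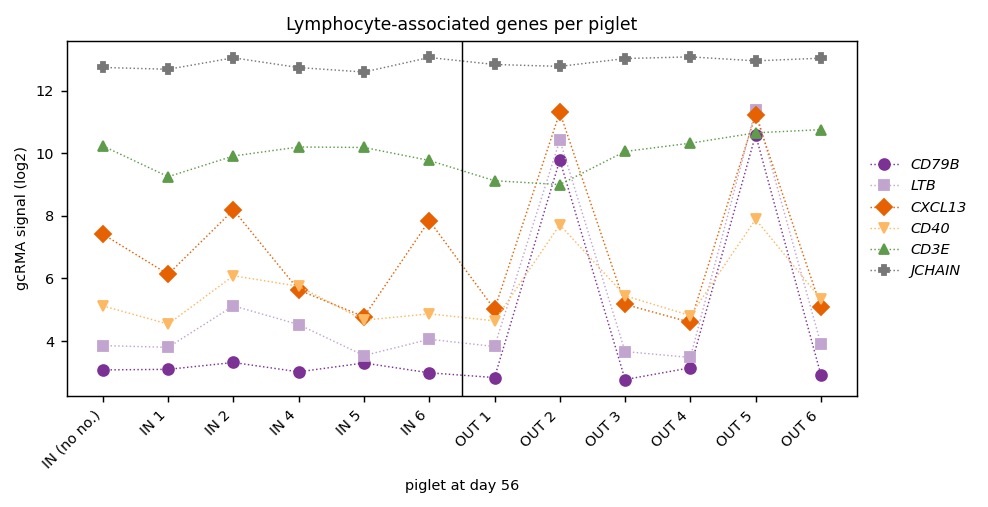
Signals (log2) of 6 lymphoid genes in each of the 6 IN and 6 OUT piglets of day 56, with piglets along the horizontal axis and 1 symbol shape per gene. CD79B (9.79 and 10.59), LTB and CXCL13 are far higher in OUT 2 and OUT 5 than in any other piglet, while CD3E and JCHAIN do not set these piglets apart.

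Of 23935 probesets tested, 66 (0.276%) passed the thresholds of the study, an unadjusted limma p below 0.01 and a change of at least 2-fold. Most were higher in IN animals (52 probesets, 0.217%), and 14 (0.0585%) were lower. No probeset reached an adjusted p below 0.05 in limma (lowest 0.342), although 1876 had an unadjusted p below 0.05, of which 914 (3.82%) were higher and 962 (4.02%) lower in IN animals. The genes named below as called had limma adjusted p-values of 0.342 to 0.539. Beside them stands an exact two-sided permutation test of the 6 IN against the 6 OUT piglets for the gene alone, not adjusted over genes. Among the 66 called probesets, 52 had a gene symbol, for 51 different genes, and 22 probesets took their name only from the study's additional list, which names just those probesets that the study had selected. The groups did not overlap at all in 6 of the probesets higher in IN animals and in 2 of those lower. Over all probesets, 25 (0.104%) did not overlap in each direction. The 66 were selected for their difference on these same arrays, so their larger share carries no weight. Separation without overlap, in either direction, has an exact permutation p of 0.00216. The 0.104% in each direction is therefore no more than random labels would give. Non-overlap of the genes below is given only as a description of their signals.

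The count depended on single piglets. It was 38 without IN 4, 43 without OUT 2, 93 without OUT 1, 113 without IN 6 and 158 without OUT 3, and in this last case 2 probesets reached an adjusted p below 0.05 (lowest 0.0182), PCDH15 and a probeset with no name. OUT 3 had the highest OUT signal in 31 of the 52 probesets higher in IN animals (59.6%, against 15.4% of all probesets), and IN 6 had the lowest IN signal in 24 of them (46.2%, against 17.9%). Without OUT 2 and OUT 5 together, 56 probesets were called, 28 in each direction, and only 19 of them were among the original 66. Of 31 called results described in detail below, 12 remained called without these 2 piglets. Under all 25 alternatives tried, 8 of the 31 stayed called: PI3, the dimmer BPI probeset, PCDH15, PLIN2, CPT1A, SLC25A20, DHRS4 and STAU2.

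**Figure D2:**
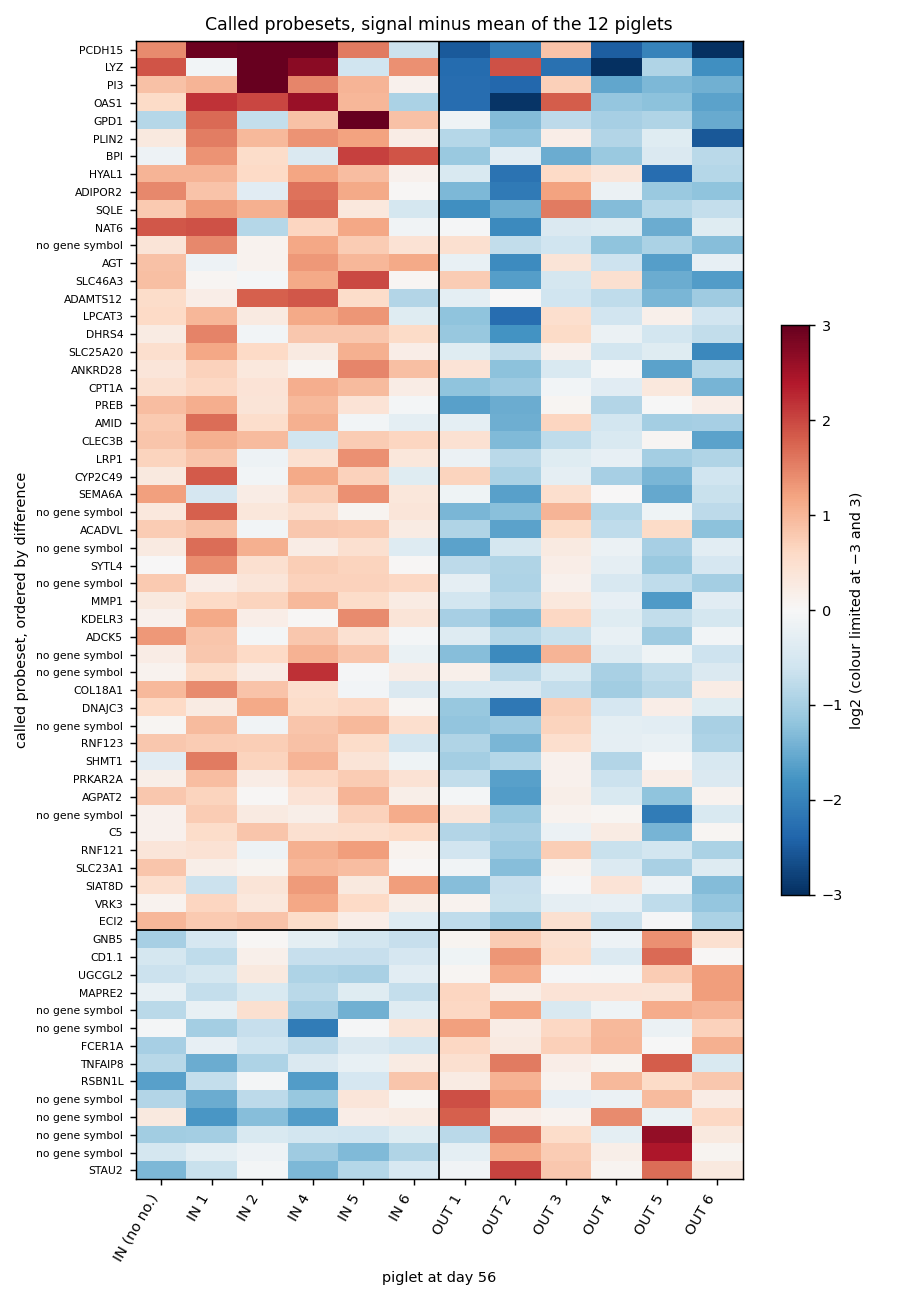
Of the 66 called probesets, 64 (lines) in the 12 piglets (columns), coloured by the signal minus the mean of the 12 piglets (log2, limited to 3 in either direction), with probesets ordered by the difference between IN and OUT. The 50 probesets at the top are redder in IN and the 14 at the bottom redder in OUT, and the column of OUT 3 looks closer to IN than those of the other OUT piglets.

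Genes for proteins that act on bacteria at the mucosal surface were among the strongest differences. PI3 encodes elafin, a protease inhibitor with antibacterial activity. Its signal was 9.72, 10.60 and 13.38 (lowest, median and highest) in IN animals and 7.22, 8.08 and 10.31 in OUT animals. The difference was 2.77 ± 0.67 (SE), or 6.80-fold, with an exact permutation p of 0.00433, and only OUT 3 reached into the IN range. LYZ, the lysozyme that splits bacterial cell walls, ran from 5.56 over 7.78 to 9.27 in IN animals and from 3.17 over 4.12 to 8.07 in OUT animals. It was 2.79 ± 0.83 higher (6.92-fold, exact permutation p = 0.0216), and the high OUT value belonged to OUT 2, so that the difference was 3.74 without OUT 2 and OUT 5. The LYZ call was lost at the margin without IN 2, IN 4 or OUT 4 (2.45 to 2.53). This probeset is named only in the additional list.

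BPI, which binds the endotoxin of Gram-negative bacteria, was read by 2 probesets. The dimmer one lay at 5.47, 6.85 and 7.95 in IN animals and at 4.40, 4.94 and 5.57 in OUT animals, a rise of 1.75 ± 0.50 (exact permutation p = 0.00649). The brighter one pointed the same way (8.66, 10.35 and 10.67 against 6.82, 8.62 and 9.66; difference 1.55 ± 0.59) but missed the limma threshold, and it passed without IN 4 or OUT 5 (1.79 to 1.83) and without OUT 2 and OUT 5 together (2.09). Across the list of 23 antimicrobial and mucosal defence genes named by the platform, only PI3 was called. Among all 6765 named genes 23 were called higher and 3 lower. The median difference of the list was 0.035 (0.14 without OUT 2 and OUT 5), against 0.02 for all named genes. Its 10 members that were not dim had a median difference of 1.1, 8 of them above 0. A signal of at least 4 on 6 of the 18 arrays was enough to count as not dim. A gene bright in the 6 IN animals alone could so enter, and this median carries no weight of its own. Among the 10 were DMBT1, a secreted bacteria-binding scavenger protein (2.11), SLPI, a relative of elafin (1.62), and LGALS9 (1.39), none of these called. Lactoferrin (LTF, -0.19) and the peptidoglycan receptor PGLYRP1 (-0.26) were slightly lower and were not called either.

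The study designed primers for real-time PCR of some of these genes. They were not matched to the array probesets here, and all values come from the probesets. The primers for PI3, for the interferon-induced gene IFIT2 and for the cholesterol gene SQLE are shown 5′ to 3′ because the text below turns on these genes, and no bases are marked.
PI3 forward: cctgccccaggattctga
PI3 reverse: tgagcatcactcaaacacctgtt
IFIT2 forward: cctatctcgcctgcctctgt
IFIT2 reverse: tggagcacttgtttggctaca
SQLE forward: ttcgtctctctggccaacaa
SQLE reverse: ccccagcgacaggaatacc

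Genes induced by type I interferon leaned towards IN animals as a group, but animals of both groups covered a wide range. Of 30 measured, 29 had a higher mean in IN animals, with a median difference of 0.88, and 1 of them, OAS1, was called. Only 2 of the 30 had an unadjusted limma p below 0.05, both with a higher mean in IN animals. Over all 6765 named genes, 54.3% had a higher mean in IN animals, 23 were called higher and 3 lower, and 386 had an unadjusted p below 0.05 with a higher mean in IN animals. OAS1 makes the messenger that activates the antiviral nuclease RNase L. Its signal was 9.94, 12.38 and 13.48 in IN animals and 7.95, 9.46 and 12.69 in OUT animals, a rise of 2.46 ± 0.80 (5.52-fold, exact permutation p = 0.0216). The IN piglets were at 11.47 or above except for IN 6, the lowest, and among OUT piglets OUT 3 alone exceeded 9.73. The call was lost without IN 1, IN 2, IN 4 or any OUT piglet but OUT 3 (2.12 to 2.48), and without OUT 2 and OUT 5 together (2.04).

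IFIT2, which binds viral RNA, was also highest among OUT animals in OUT 3, with signals of 4.60, 7.20 and 10.18 in IN animals against 2.56, 3.35 and 8.24 in OUT animals. Its difference of 3.06 ± 1.42 was not called (exact permutation p = 0.0411), nor were the differences of its brighter probesets (2.28 and 2.51). The other members with the lowest p were the nucleic acid sensor ZBP1 (2.16 ± 1.06), the RNA-degrading enzyme PNPT1 (1.29 ± 0.63) and IRF9, a subunit of the transcription factor that carries the interferon signal (0.87 ± 0.40, and 0.53 without OUT 2 and OUT 5). None of these was called. IFRD1, counted with the interferon genes by the study, differed by 1.16 ± 0.47 (exact permutation p = 0.0455) and was called without OUT 3 (1.53). Another IFRD1 probeset differed by 0.67 ± 0.36 and was not called. The mean signal of the 30 genes was 8.27 to 10.49 in IN animals, lowest in IN 6, and 7.26 to 9.55 in OUT animals, highest in OUT 3. Without OUT 2 and OUT 5 the median difference of the list was 0.49. Genes of the class I presentation pathway, which interferons also raise, had a smaller median difference (14 genes, 0.26, none called), which was 0.08 without OUT 2 alone, 0.12 without OUT 1 and 0.05 without OUT 2 and OUT 5.

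**Figure D3:**
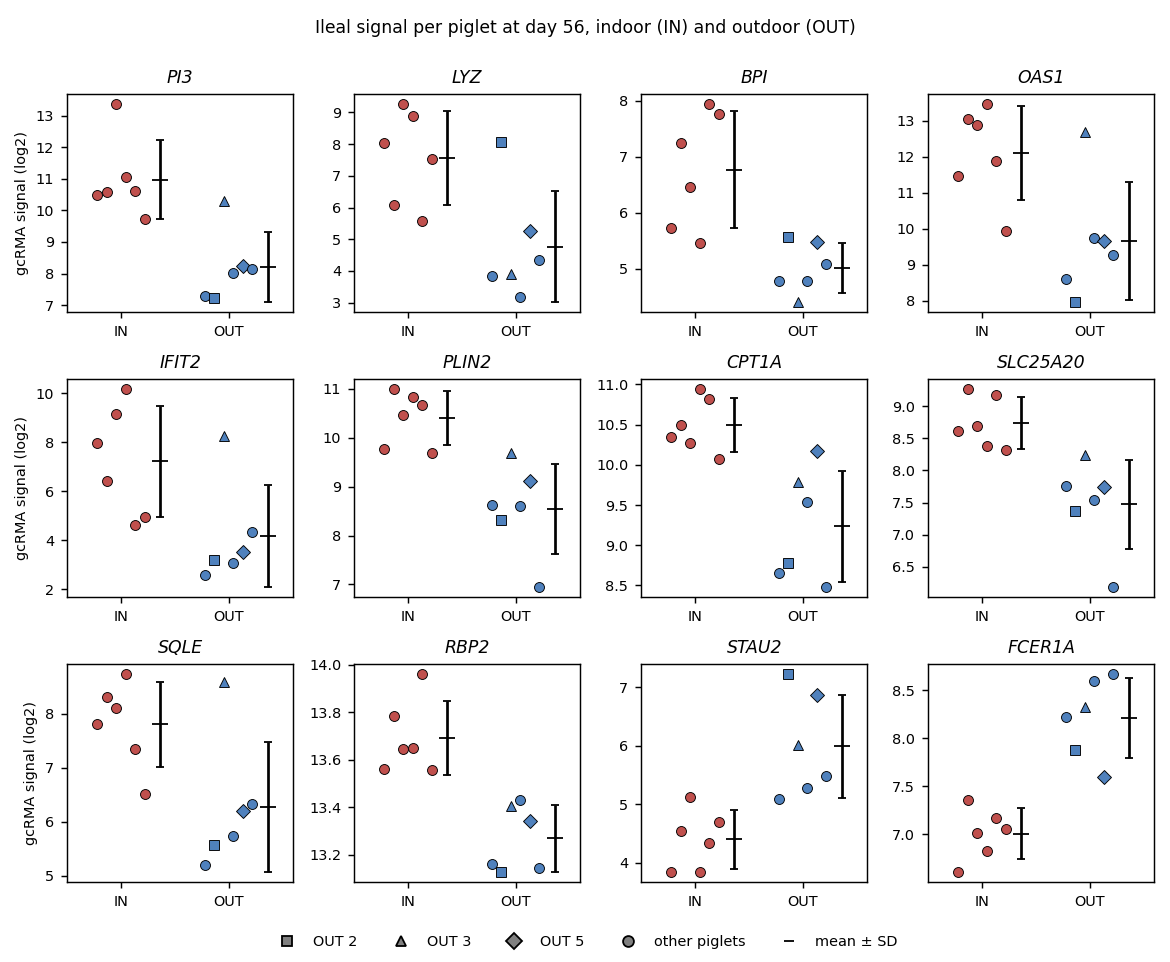
Signals (log2) of 12 named genes in each IN and OUT piglet of day 56, with the mean and SD of each group, and with OUT 2, OUT 3 and OUT 5 marked by their own shapes. PLIN2, SLC25A20 and RBP2 do not overlap between the groups, FCER1A is lower in every IN piglet, and OUT 3 is the highest OUT piglet for PI3, OAS1, IFIT2, PLIN2 and SQLE.

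Several genes of fatty acid use were called. PLIN2 coats the lipid droplets in which enterocytes and other cells keep fat. Its signal was 9.70, 10.57 and 11.01 in IN animals and 6.94, 8.61 and 9.68 in OUT animals. Every IN piglet exceeded every OUT piglet, with a difference of 1.86 ± 0.36 (3.63-fold, exact permutation p = 0.00216, the smallest that these group sizes allow). CPT1A, the enzyme that commits long-chain fatty acids to mitochondrial oxidation, lay at 10.08, 10.42 and 10.95 in IN animals and 8.48, 9.16 and 10.18 in OUT animals. It rose by 1.26 ± 0.31 (exact permutation p = 0.00433), and only OUT 5 reached the IN range. SLC25A20 carries the acylcarnitines made by CPT1A across the inner mitochondrial membrane. At 8.31, 8.65 and 9.27 in IN animals and 6.18, 7.64 and 8.24 in OUT animals, its groups did not overlap (1.27 ± 0.35, exact permutation p = 0.00216). All 3 calls held under every alternative, and without OUT 2 and OUT 5 the differences were 1.94, 1.38 and 1.31.

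For the genes of the pathway named next, the differences were smaller and of the same sign. ECI2, which shifts double bonds during oxidation of unsaturated fatty acids, rose by 1.002 ± 0.33 and lost its call under 15 of the 25 alternatives, among them leaving out the unnumbered IN piglet, IN 1, IN 2, IN 4, OUT 1, OUT 2, OUT 4 or OUT 6 (0.88 to 0.99), and OUT 2 and OUT 5 together (0.97). The subunits of the mitochondrial trifunctional protein HADHA (0.45) and HADHB (0.37), the dehydrogenases ACADVL (0.56), ACADS (0.52) and ACADL (0.57), the thiolase ACAA2 (0.64) and the fat-sensing nuclear receptor PPARA (0.31) had higher means in IN animals, by less than the 2-fold threshold, and were not called. A dimmer ACADVL probeset, which the list does not count, was called (1.13), while a dimmer ECI2 probeset differed by only 0.07 ± 0.13. ANGPTL4 went the other way, with a lower mean in IN animals on both probesets (-0.74 ± 0.37 and -0.47 ± 0.41, neither called). Over 40 genes of fatty acid oxidation and PPARA targets, 4 were called higher and none lower, 14 had an unadjusted p below 0.05, all of them higher in IN animals, and the median difference was 0.21. Of the 40, 32 had a higher mean in IN animals and 8 a lower one, beside the 54.3% higher over all named genes. Of those 6765 genes, 23 were called higher and 3 lower, and 386 had an unadjusted limma p below 0.05 with a higher mean. The mean signal of the list was 8.08 to 8.42 in IN animals and 7.66 to 8.27 in OUT animals, and without OUT 2 and OUT 5 its median was 0.09. PDK4, which spares glucose when fat is burnt, differed by 0.46 ± 0.49 on its brighter and 0.81 ± 0.41 on its dimmer probeset, neither called. FABP1, the liver-type fatty acid binding protein of enterocytes, was very bright in both groups and differed by 0.50 ± 0.21 (not called).

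In fat and triglyceride synthesis 2 of 22 genes were called, PLIN2 and AGPAT2. Over all 6765 named genes, 23 were called higher and 3 lower. AGPAT2, which builds the precursor of triglycerides, lay at 9.45, 9.96 and 10.44 in IN animals and 7.73, 9.16 and 9.59 in OUT animals. It rose by 1.04 ± 0.34 (exact permutation p = 0.0108), and lost the call without the unnumbered IN piglet, IN 1, IN 4, IN 5, OUT 2, OUT 4 or OUT 5 (0.81 to 1.06). Leaving out OUT 2 and OUT 5 together gave 0.58. GPD1, which supplies the glycerol backbone, ran from 4.01 over 5.74 to 8.59 in IN animals and from 3.35 over 3.92 to 4.73 in OUT animals. Its rise of 1.88 ± 0.59 (exact permutation p = 0.0173) was lost without IN 1, OUT 2, OUT 4 or OUT 6 (1.73 to 1.87), and without OUT 2 and OUT 5 together (1.79). MTTP, which loads fat onto chylomicrons for export, differed by 0.61 ± 0.23, or by 0.23 without OUT 2 and OUT 5, and was not called. ADIPOR2, a receptor for adiponectin, rose by 1.58 ± 0.51 on its dimmer probeset, while the brighter one differed by only 0.27 ± 0.29. That call was lost under 11 alternatives, among them leaving out the unnumbered IN piglet, IN 1, IN 4, IN 5, OUT 1, OUT 2, OUT 5 or OUT 6 (1.32 to 1.57), and OUT 2 and OUT 5 together (1.17).

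All 13 measured genes of cholesterol synthesis had a higher mean in IN animals (median difference 0.57), 8 of them with an unadjusted p below 0.05 (386 of the 6765 named genes were so, and 54.3% had a higher mean), and 1 was called. That gene was SQLE, the enzyme that adds the first oxygen to squalene. It lay at 6.51, 7.96 and 8.74 in IN animals and at 5.20, 5.96 and 8.59 in OUT animals, a rise of 1.54 ± 0.53 (exact permutation p = 0.0325). All OUT piglets but OUT 3 were below every IN piglet, and OUT 3 was near the top of the IN group. The call stood at the margin and was lost under 16 of 25 alternatives, among them leaving out any piglet but IN 6 and OUT 3 (1.32 to 1.63). FDPS (0.99 ± 0.36), NSDHL (1.03 ± 0.40) and MSMO1 (0.84 ± 0.33), further enzymes of the same route, were not called. Without OUT 3 all of these 3 were called, and FDPS and NSDHL also without IN 6 (1.08 to 1.36 in these fits). Without OUT 2 and OUT 5 the median of the list was 0.41, and SQLE differed by 1.34 and was not called.

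Vitamin A is absorbed by the same cells. RBP2, the cellular retinol binding protein of enterocytes, was among the brightest transcripts, at 13.56, 13.65 and 13.96 in IN animals and 13.12, 13.25 and 13.43 in OUT animals. Every IN piglet was above every OUT piglet (exact permutation p = 0.00216), with a difference of 0.43 ± 0.09 that stayed under 2-fold and so was not called. RBP4, the retinol carrier of plasma, differed by 0.81 ± 0.24 (exact permutation p = 0.00649), also under 2-fold, and by 0.48 without OUT 2 and OUT 5. DHRS4, a reductase that acts on retinal, lay at 6.24, 7.02 and 7.82 in IN animals and 4.54, 5.70 and 6.91 in OUT animals and rose by 1.27 ± 0.34 (exact permutation p = 0.0108). Over 19 genes of apolipoproteins and retinol handling the median was 0.12, with DHRS4 the only call. In drug and steroid metabolism 1 of 29 genes was called, CYP2C49, a cytochrome P450 (1.17). Its signal was low, at 3.33 to 5.54 in IN animals and 2.34 to 4.37 in OUT animals. Beside the calls in these lists, 23 of all 6765 named genes were called higher and 3 lower.

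Complement and coagulation genes had 2 calls among 30 and a median difference of 0.14, beside 23 higher and 3 lower calls among all 6765 named genes. C5, the source of the chemotactic fragment C5a, lay at 10.50, 10.91 and 11.20 in IN animals and 8.98, 9.85 and 10.60 in OUT animals. It rose by 1.04 ± 0.24 (exact permutation p = 0.00433) and fell just under 2-fold without IN 2, OUT 1, OUT 2 or OUT 5 (0.86 to 0.98), and without the latter pair together (0.70). C9, which forms the pore of the membrane attack complex, was at 11.43 to 11.83 in IN animals and 10.32 to 11.33 in OUT animals. These groups did not overlap, yet the difference of 0.74 ± 0.18 (exact permutation p = 0.00216) was under 2-fold. AGT, angiotensinogen, rose by 1.41 ± 0.46 (exact permutation p = 0.0108), a call lost without the unnumbered IN piglet, IN 4, IN 5, IN 6, OUT 2, OUT 4 or OUT 5 (1.18 to 1.43). The difference was 0.88 without OUT 2 and OUT 5 together.

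On the list of 29 matrix genes named by the platform, 2 were called, MMP1, the interstitial collagenase, and CLEC3B (tetranectin). Of all 6765 genes so named, 23 were called higher and 3 lower. The collagen COL18A1, named only in the additional list and so not counted, was called as well (1.09). MMP1 lay at 11.07, 11.40 and 11.80 in IN animals and 9.11, 10.38 and 11.13 in OUT animals, a rise of 1.11 ± 0.28 (exact permutation p = 0.00649), and was under 2-fold without OUT 5 (0.88) and without OUT 2 and OUT 5 (0.76). CLEC3B rose by 1.21 ± 0.39 and lost its call under 12 alternatives, including those without the unnumbered IN piglet, IN 1, IN 2, IN 5, IN 6, OUT 2, OUT 3 or OUT 6 (1.02 to 1.21), and OUT 2 and OUT 5 together (1.202). DNAJC3, a chaperone of the endoplasmic reticulum, was the only call among 35 heat shock and endoplasmic reticulum stress genes (1.07 ± 0.35), although a dimmer probeset of the retention receptor KDELR3 was called too (1.102). The DNAJC3 call was lost without the unnumbered IN piglet, IN 2, IN 4, IN 5, OUT 1, OUT 2, OUT 4 or OUT 6 (0.75 to 1.11), and without OUT 2 and OUT 5 together (0.85). A dimmer DNAJC3 probeset differed by 0.38 ± 0.22 and was not called.

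The largest difference of all belonged to a probeset named PCDH15 in the additional list alone, a cadherin known from the inner ear. Its signal was 5.34, 8.23 and 9.25 in IN animals and 2.66, 3.69 and 6.83 in OUT animals, a rise of 3.86 ± 0.70 (14.5-fold, exact permutation p = 0.00433), with OUT 3 the only OUT piglet inside the IN range. HYAL1, which degrades hyaluronan, rose by 1.62 ± 0.49 (exact permutation p = 0.0108), and by 0.89 without OUT 2 and OUT 5. Leaving out OUT 2 or OUT 5 alone already ended the HYAL1 call (1.32 to 1.33). The rises of NAT6, an acetyltransferase (1.53 ± 0.46), of the lysosomal transporter SLC46A3 (1.36 ± 0.44) and of the metalloprotease ADAMTS12 (1.36 ± 0.42, named in the additional list) each lost the call without 1 of several piglets. These were the unnumbered IN piglet, IN 1, OUT 2 and OUT 5 for NAT6 (1.31 to 1.39), the unnumbered IN piglet, IN 4, IN 5, OUT 2, OUT 5 and OUT 6 for SLC46A3 (1.103 to 1.318), and IN 2, IN 4, OUT 5 and OUT 6 for ADAMTS12 (1.13 to 1.28). Without OUT 2 and OUT 5 together NAT6 differed by 1.07 and SLC46A3 by 0.92, neither called. Another SLC46A3 probeset of similar brightness differed by 0.65 ± 0.24 and was not called.

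Fewer genes were lower in IN animals. STAU2, an RNA-binding protein that transports messenger RNA, had the largest fall among the called genes that have a name. Its signal was 3.84, 4.44 and 5.13 in IN animals and 5.09, 5.74 and 7.23 in OUT animals, a difference of -1.59 ± 0.34 (3.01-fold, exact permutation p = 0.00433). The highest OUT values were those of OUT 2 and OUT 5, and the difference was -1.06 without them. FCER1A, the chain of the IgE receptor that binds antibody on mast cells and basophils, was at 6.60, 7.03 and 7.36 in IN animals and 7.59, 8.27 and 8.67 in OUT animals. Every IN piglet was below every OUT piglet (difference -1.21 ± 0.24, exact permutation p = 0.00216), and without OUT 2 and OUT 5 the difference was -1.45. The only setting that ended this call was a fit of all groups and days together. MAPRE2, which binds the ends of microtubules, also did not overlap (3.05 to 3.63 against 4.02 to 5.10; -1.10 ± 0.23, exact permutation p = 0.00216) and was under 2-fold only without OUT 6 (-0.96). All 3 are named only in the additional list.

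MS4A2, the beta chain of the same IgE receptor, was at 4.53, 5.19 and 5.42 in IN animals and 4.84, 5.81 and 6.61 in OUT animals. It differed by -0.77 ± 0.29 (exact permutation p = 0.0411), short of the thresholds, and passed them without OUT 2 and OUT 5 (-1.12). A dimmer MS4A2 probeset differed by only -0.26 ± 0.17 and was not called. KIT, the stem cell factor receptor on mast cells and on the pacemaker cells of the gut muscle, differed by -0.63 ± 0.30 (exact permutation p = 0.0476) and was not called. The list of mast cell and eosinophil markers had 4 measured genes, all lower in IN animals on average and none called. Its median was -0.41, and -0.57 without OUT 2 and OUT 5, and GATA2 differed by only -0.19 ± 0.21. Over all 6765 named genes, 54.3% had a higher mean in IN animals, 23 were called higher and 3 lower. The mean signal of the 4 genes was 4.25 to 4.82 in IN animals and 4.52 to 5.35 in OUT animals.

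The other named falls were smaller and less stable. TNFAIP8, an inhibitor of apoptosis, fell by 1.22 (SE 0.36), or by 0.68 without OUT 2 and OUT 5, and lost the call without IN 1, OUT 2 or OUT 5 (-1.04 to -0.98). A dimmer TNFAIP8 probeset differed by -0.55 ± 0.25 and was not called. RSBN1L, named like UGCGL2 only in the additional list, fell by 1.25 (SE 0.37) and lost the call without the unnumbered IN piglet or IN 4 (-1.05 to -1.04), and without OUT 2 and OUT 5 (-1.16). A dimmer RSBN1L probeset differed by -0.59 ± 0.33 and was not called. UGCGL2, a sensor of misfolded glycoproteins, fell by 1.03 (SE 0.32), a call lost without the unnumbered IN piglet, IN 4, IN 5, OUT 2, OUT 5 or OUT 6 (-1.01 to -0.89), and without OUT 2 and OUT 5 together (-0.82). GNB5, a G protein subunit, fell by 1.01 (SE 0.25), and was under 2-fold without the unnumbered IN piglet, IN 5, IN 6, OUT 2 or OUT 5 (-0.995 to -0.83), and without the latter pair together (-0.72). The GNB5 signal was low (3.20 to 4.22 in IN and 4.04 to 5.56 in OUT animals), and a dimmer probeset differed by -0.35 ± 0.18. CD1.1, a lipid antigen presenting molecule, was near background in both groups (2.36 to 3.28 against 2.71 to 4.83). Its difference of -1.02 ± 0.30 was -0.51 without OUT 2 and OUT 5, and the call was also lost without IN 1, IN 4, IN 5, OUT 2 or OUT 5 alone (-0.98 to -0.78).

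None of the 23 chemokines and chemokine receptors was called in limma, while 4 had an unadjusted p below 0.05 with a higher and 2 with a lower mean in IN animals. Over all 6765 named genes these last counts were 386 and 206, and 23 genes were called higher and 3 lower. CCL8, which draws monocytes, lay at 3.79, 4.93 and 5.78 in IN animals and 2.36, 4.0 and 4.43 in OUT animals (1.28 ± 0.45, exact permutation p = 0.0519), and was called without IN 1, IN 5, OUT 4, OUT 5 or OUT 6 (1.403 to 1.501). CCL28, the mucosal chemokine that attracts IgA plasma cells, was at 5.58, 5.88 and 7.39 against 3.80, 4.53 and 6.57 (1.40 ± 0.51, exact permutation p = 0.039). It was called without OUT 3 or OUT 6 (1.75 and 1.57) and differed by 0.90 without OUT 2 and OUT 5. A brighter CCL28 probeset, named in the additional list, differed by 0.32 ± 0.32 and was not called. CXCL12, a chemokine of stromal cells, differed by -0.48 ± 0.16 (exact permutation p = 0.013), under 2-fold.

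PMP22, a membrane protein of junctions and of myelin, was tightly grouped at 9.27 to 9.75 in IN animals and spread from 9.19 to 11.83 in OUT animals, where only OUT 2 was low. It differed by -1.32 ± 0.51 (exact permutation p = 0.0152), and by -1.63 without OUT 2, which would be a call. This probeset is named only in the additional list.

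The marker lists of the main cell types gave no calls. All 6765 named genes held only 23 higher and 3 lower calls, so lists this short would hold few at that share. FCER1A and LYZ, both called and also chosen as cell markers, are in none of these lists, since only the additional list names them. The T cell list (19 genes) had a median of -0.13, B and plasma cells (6 genes) -0.24, macrophages and dendritic cells (21 genes) 0.24, neutrophils (9 genes) -0.04, brush border (15 genes) 0.14, smooth muscle (13 genes) -0.20 and blood and lymph vessel endothelium (23 genes) 0.10. Without OUT 2 and OUT 5 these medians were 0.04, 0.10, 0.28, 0.03, -0.11, -0.44 and 0.06, in the same order, so that those of T cells, B and plasma cells, neutrophils and brush border changed sign. Outside the B cell list GNLY, the antibacterial granulysin of cytotoxic lymphocytes, had the largest difference among these genes, at 6.20, 8.17 and 8.98 against 4.88, 5.55 and 8.05 (1.95 ± 0.82, exact permutation p = 0.0195, not called). The scavenger receptor CD163 of macrophages differed by 0.80 ± 0.32 and was called only without IN 5 (1.01). The mean signal of the brush border list was 11.23 to 11.72 in IN and 10.97 to 11.82 in OUT animals, and that of the smooth muscle list 9.32 to 10.70 and 9.26 to 11.38, so the groups overlapped in both. Their part in the differences above was not tested. The tight junction gene CLDN3 (0.81 ± 0.23) and the stem cell marker OLFM4 (0.51 ± 0.18) were under 2-fold. Of 58 genes for cytosolic ribosomal proteins, 2 had a higher mean in IN animals and none was called. Their median was -0.09, and -0.0015 without OUT 2 and OUT 5. Over the 6765 named genes, 54.3% were higher in IN animals.

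**Figure D4:**
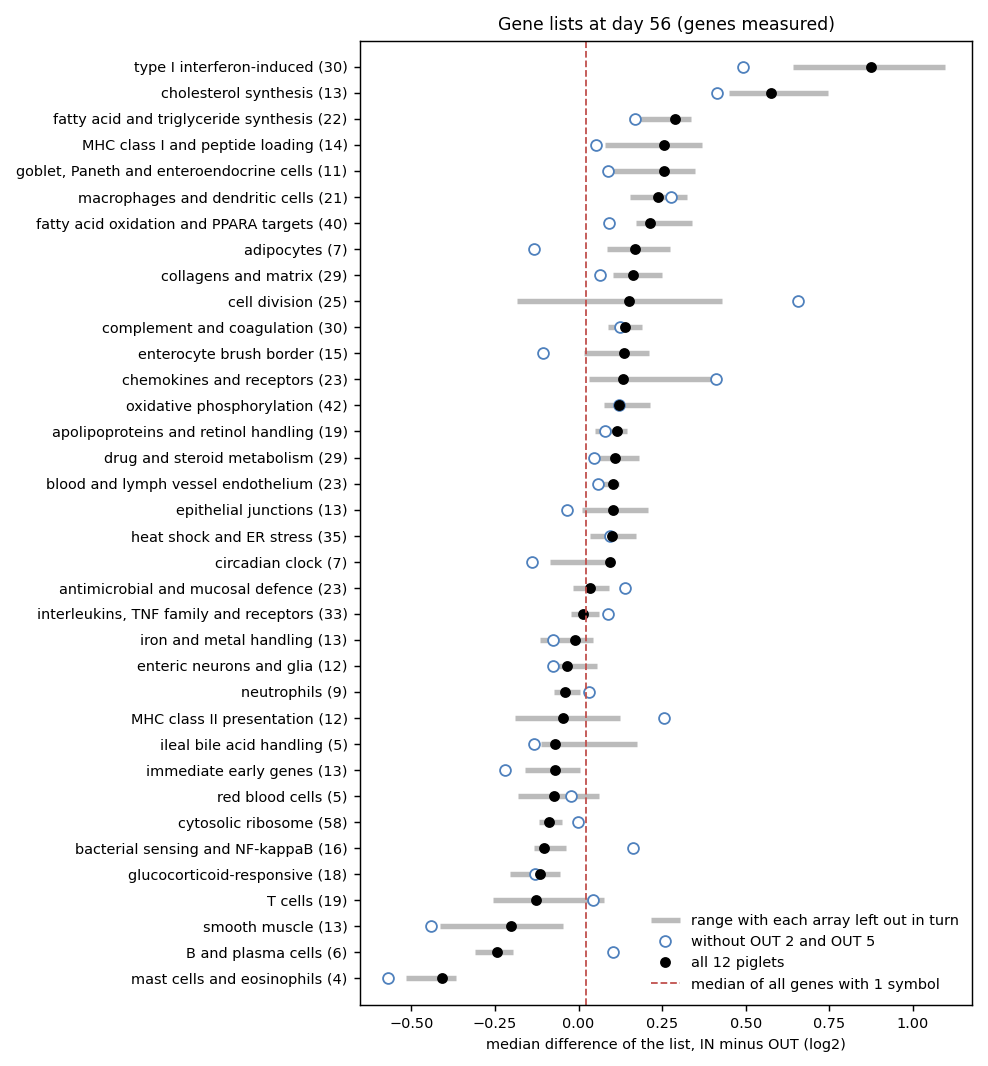
Median log2 difference (IN minus OUT, day 56) of 36 gene lists. Black points use the 12 piglets, open blue points leave out OUT 2 and OUT 5, grey bars span the values with 1 piglet left out in turn, and the dashed line is the median of all named genes. The interferon (0.88) and cholesterol synthesis (0.57) lists lie farthest to the right and the mast cell and eosinophil list (-0.41) farthest to the left.

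None of the 66 probesets was called between IN and OUT animals on day 28 or on day 5. Of the 52 that were higher in IN animals on day 56, the difference on day 28 was above 0 in 9 and on day 5 in 26. Of the 14 lower ones, 4 were lower on day 28 and 8 on day 5. The change of the IN against OUT difference between ages was tested in a limma fit over the 36 IN and OUT arrays of the 3 ages. No probeset reached an adjusted p below 0.05 against day 28 (lowest 0.453) or day 5 (lowest 0.903), and 1873 (7.83%) and 1241 (5.18%) had an unadjusted p below 0.05. A change of at least 1 with an unadjusted p below 0.01 was found for 220 (0.919%) and 48 (0.201%). Among the 66, 48 and 29 had an unadjusted p below 0.05, but the day 56 difference that selected them is itself part of each test, so these counts carry no weight of their own.

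PLIN2 differed by -0.18 ± 0.45 on day 28 and by -0.39 ± 0.45 on day 5 (limma adjusted p = 0.484 for the change from day 28). CPT1A differed by -0.38 ± 0.39 and -0.56 ± 0.39 (limma adjusted p = 0.499 for the change from day 28). The dimmer BPI probeset differed by -0.50 ± 0.47 on day 28 (limma adjusted p = 0.469 for the change) and CCL28 by -1.06 ± 0.57 (limma adjusted p = 0.497). For all of these the sign on day 28 was opposite to that on day 56. LYZ differed by 0.69 ± 1.01 on day 28, OAS1 by 0.18 ± 0.81 and FCER1A by 0.01 ± 0.53, with unadjusted p above 0.05 for the change. PMP22 had a lower mean in IN animals at each age, with differences of -0.80 ± 0.36 on day 5, -1.61 ± 0.36 on day 28 and -1.32 on day 56.

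**Figure D5:**
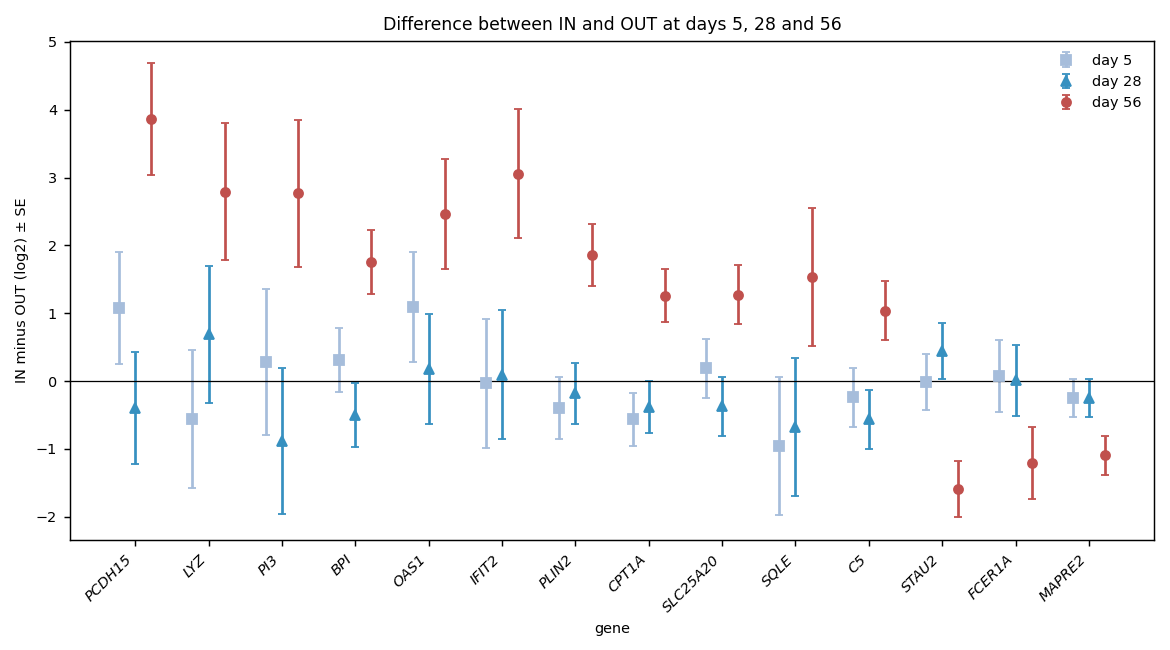
Log2 difference between IN and OUT animals (IN minus OUT, with its SE) on days 5, 28 and 56 for 14 named genes, from 1 fit over the 36 arrays of the 3 ages. PI3, BPI (the dimmer probeset), PLIN2 and CPT1A are below 0 on day 28 and above 1 on day 56, and STAU2, FCER1A and MAPRE2 are lowest on day 56.

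Signals of the IR animals of day 56 are given as a description. In 48 of the 52 probesets higher in IN than in OUT animals, the IN mean was also above the IR mean, although IN animals enter both comparisons and were chosen here for being high. LYZ averaged 3.68 in IR animals (2.77 to 6.36), PI3 8.06 (6.11 to 9.54), PLIN2 7.93 (7.43 to 8.62) and CPT1A 8.37 (7.58 to 9.45), all near or below the OUT values. OAS1 averaged 11.43 (9.38 to 13.41), between the groups, and FCER1A 7.78 (6.86 to 8.30). Other called genes lay near or above the IN mean in IR animals. AGT averaged 6.02 (IN mean 5.90), CLEC3B 8.70 (IN mean 8.33) and HYAL1 7.84 (IN mean 8.11).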

How the data were processed

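RNA of ileum from 54 piglets in 9 groups had been hybridised to the Affymetrix GeneChip Porcine Genome Array. The authors scanned the arrays with GCOS 1.2 and normalized them by GCRMA, and the deposited values are log2 signals from -0.26 to 14.72 per probeset. No genome build or further processing is given in the sources used here. The number of arrays limits the precision, since arrays give no counts. Groups were taken from the sample titles. IN arrays are unnumbered, 1, 2, 4, 5 and 6, and OUT arrays 1 to 6.

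After 188 control probesets were left out, 23935 were tested with limma 3.58.1 in R 4.3.3 on the 18 arrays of day 56 (IN, OUT and IR), for IN minus OUT, with no filter and no pseudocount. Calls needed an unadjusted p below 0.01 together with a change of at least 2-fold, which are the study's thresholds. Benjamini-Hochberg values were computed over all probesets, and single genes were also compared by a two-sided exact permutation test of 6 against 6. The study's methods add the experimental run as a block. The labels do not give the run, so the fit has none. Changes between ages came from a fit over 36 IN and OUT arrays. On simulated data in the place of this comparison, 2% of 50 probesets shifted by 0.5 were called, 38% of those shifted by 1 and 100% of those shifted by 1.5 or 2, with 20 of 23735 unshifted ones. The simulated noise was normal and independent for each probeset, and the shifted probesets were drawn at random from all. It lacks deviations that many probesets of an array share, and says little about genes with a wide spread such as IFIT2.

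The platform annotation gave 1 symbol for 10069 probesets, several for 198 and none for 13668, of which 132 were named from the study's additional list. Multi-symbol probesets were not named, and a gene in a list is its brightest probeset. Named are the genes the study's text or PCR covers for this comparison, the 15 largest named rises and 10 largest named falls, up to 4 members with the lowest p per list, and ileum and cell markers. Of these, the genes that add to the account are printed, and some genes are not reported here. The members and the 36 lists were chosen with earlier results of these data known. A dim probeset has a signal of at least 4 on fewer than 6 of the 18 arrays. Alternatives were other groups in the fit, replicate blocks, numbered arrays only, a dim filter (12781 probesets kept), the moderated F-test of the study, array weights, a robust fit with an intensity trend, centring on the median, quantile normalization, each array left out, and OUT 2 and OUT 5 left out together, the last one chosen after seeing the data.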

Additional observations from a re-analysis of the deposited data

Results flagged for a closer look

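Among the named genes and gene lists, 188 groups of 6 piglets were searched for a piglet far from the other 5, and 12 held one, where chance alone flags about 1 in 20 groups (9.4 here). OUT 3 was far above the other OUT piglets for IFIT2 (8.24, the next at 4.35), PI3 (10.3, the next at 8.24), SQLE (8.59, the next at 6.33), PCDH15 (6.83, the next at 3.96) and the mean of the cholesterol synthesis genes (9.02, the next at 7.83). IN 2 was high for PI3 (13.4, the next at 11.05) and for CD1.1 (3.28, the next at 2.62), and low for the mean of the circadian clock genes (5.58, the next at 5.84). IN 1 was low for C9 (11.43, the next at 11.69) and GNLY (6.20, the next at 7.95). IN 4 was low for CLEC3B (7.13, the next at 8.37), and the unnumbered IN piglet was high for the mean of the adipocyte genes (7.81, the next at 6.95). No change of the IN against OUT difference between ages passed an adjusted p of 0.05 in limma.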

How the results depend on the processing

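The number of called probesets (66, with 52 higher and 14 lower in IN animals) was 61 to 74 with other groups in the fit, quantile normalization, median centring, array weights or an intensity trend with robust fitting. With 1 array left out it was 38 to 158 (25 to 115 higher, 6 to 45 lower, 0 to 2 with an adjusted p below 0.05). Higher probesets numbered 34 with the moderated F-test and 28 without OUT 2 and OUT 5, and lower ones 28 without these 2 arrays and 8 with numbered arrays only. The replicate numbers showed no clear pairing of the samples, although so few arrays cannot settle whether they carry the run. Piglets of the same number had correlations of their deviations from -0.16 to 0.26, and 1 of the 5 numbered IN arrays correlated best with its own number. A replicate block by number gave 104 calls (85 higher), one by number in pairs of consecutive numbers 91 (78 higher), and the latter with only IN and OUT arrays 110 (96 higher). Probesets whose difference changed from day 28 (p below 0.01 and a change of at least 1) fell from 220 to 81 without OUT 2 and OUT 5, and from day 5 they went from 48 to 92 with the block in pairs. No named gene changed direction. Of 1448 values of named genes under alternatives, 211 lost a call and 41 gained one. List medians moved by more than the spread between animals for antimicrobial genes (1.1), ileal bile acid handling (0.45), apolipoproteins (0.24), complement (0.29) and the circadian clock (-0.11) with dim probesets left out, and for the circadian clock without OUT 2 and OUT 5 (-0.14). Another 606 of 612 medians moved less, although 17 of 36 lists took the other sign under some alternative. The cause of these shifts was not tested. A signal near background, as for CD1.1, or near the array median, as for CYP2C49, GNB5 and MAPRE2, limits what can be read from a change.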
